A study of Mus musculus with 20 samples.

Results

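Collagen chain genes encode the polypeptides that wind 3 at a time into collagen, the main structural protein of connective tissue. On this mouse array, 43 genes of the 27384 gene names carried the name of a collagen chain (Col, a number, a, a number). They were represented by 67 of the 39429 probes, and by 76 of the 43020 spots, left after control spots were set aside. Each gene was followed through its brightest probe. By class there were 11 fibrillar chains, 6 chains of type IV (Col4a1 to Col4a6, basement membrane) and 26 chains of other classes. Col26a1 was not found under that name.

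The arrays measured RNA from the prefrontal cortex, taken as a slice of the frontal pole, of male Swiss-Webster mice that were 12 weeks old when they were first caged alone. Stressed mice were put as intruders into cages of older males that lived in groups, and control mice, their brothers, were left undisturbed in a separate room. There were 4 stress groups. The acute group was killed 1 day after a single encounter, the next groups were stressed for 8 or 13 days, and the recovery group had 13 days of encounters and then 5 days of rest. Each stress group had its own control group, so control mice were caged alone for the same time. For each time point, 3 pools of stressed mice were hybridised against 3 pools of controls, and a pool held equal amounts of RNA from 3 mice. Arrays with the dyes exchanged (a dye swap) were also analysed for pools 2 and 3, which made 20 arrays of 12 pairs of pools. A dye swap of pool 1 is not analysed here. Values below are log2 ratios of stressed over control RNA, so 0 means equal signal, and a negative value means less signal in the stressed pool. A pool's own arrays were averaged first, and n is 3 pools for every time point.

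Collagen chains share a repeat of 3 residues that begins with glycine, since no larger side chain can pack inside the triple helix. Fibrillar chains (types I, II, III, V, XI, XXIV and XXVII) build the banded fibrils of skin, bone, cartilage and blood vessel walls. Type IV chains form the sheet under endothelium and around the surface of the brain. The remaining chains decorate fibrils (FACIT collagens), form bead-like filaments (type VI), anchor or line membranes (types VII, VIII and X), span the cell membrane (types XIII, XVII, XXIII and XXV) or release signalling fragments (types XV and XVIII). In the adult cortex, fibrillar collagen is known mainly from fibroblasts of the meninges and around large vessels, and type IV collagen from endothelium and pericytes.

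The glycine repeat could be read directly in 2 of the 67 probes of collagen chains. In these 2 probes, for Col25a1 (mm9, chr3:130270497-130270556) and Col15a1 (mm9, chr4:47283786-47283845), a codon that starts with GG recurred every 9 bases for the whole length of 60 bases, 6 times of 6. They are shown because they carry the repeat that defines the family, with the GGN codons in capitals, as deposited in the array files.
Col25a1 probe: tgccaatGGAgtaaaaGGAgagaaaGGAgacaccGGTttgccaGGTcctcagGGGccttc
Col15a1 probe: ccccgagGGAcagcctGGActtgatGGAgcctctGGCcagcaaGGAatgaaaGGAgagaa

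Promoters are shown for Col1a2 and Col3a1, fibrillar chains with the clearest difference between acute and repeated stress below. RefSeq sequence of GRCm38.p6 held a window for 35 of the 43 genes, 38 windows in all, and none for Col1a1. The 250 bases before the annotated start are printed for Col1a2 (chr6:4505368-4505617, plus strand) and Col3a1 (chr1:45311288-45311537, plus strand). Capitals mark CCAAT and GGGCGG on either strand and TATAAA on the strand of the gene.
Col1a2 promoter: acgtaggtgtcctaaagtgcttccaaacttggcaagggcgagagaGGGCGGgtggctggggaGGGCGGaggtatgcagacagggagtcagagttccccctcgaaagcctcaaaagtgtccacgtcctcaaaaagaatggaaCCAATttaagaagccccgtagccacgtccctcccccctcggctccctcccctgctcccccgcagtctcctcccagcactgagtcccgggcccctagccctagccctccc
Col3a1 promoter: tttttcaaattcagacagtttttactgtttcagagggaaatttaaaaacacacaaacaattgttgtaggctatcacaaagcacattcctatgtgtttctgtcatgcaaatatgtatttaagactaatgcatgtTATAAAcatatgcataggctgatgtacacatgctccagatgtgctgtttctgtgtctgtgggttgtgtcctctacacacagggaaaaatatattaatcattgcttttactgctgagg
The Col1a2 window held 1 CCAAT, 109 bases before the start, and 2 GGGCGG, but no TATAAA. The Col3a1 window held 1 TATAAA, 117 bases before the start, and neither of the others. Over windows of 300 bases (250 before and 50 after the start), CCAAT occurred in 34.2% of the 38 collagen windows and in 37.4% of all 32851. TATAAA occurred in 13.2% against 8.32%, and GGGCGG in 60.5% against 35.7%. These matches are a description of letters in the windows, and no binding was measured here.

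Most collagen chains gave a measurable signal in the cortex slice. For 26 of the 43 genes, both channels were well above background on all 20 arrays: 7 of 11 fibrillar chains, 5 of 6 type IV chains and 14 of 26 others. The same rule was met by 16080 of all 27384 genes, a similar share, so it does not set collagens apart. Another 4 genes (Col4a3, Col6a5, Col6a6 and Col28a1) were not well above background in both channels on any array, and 13 lay in between. Across arrays, 28 to 36 collagen genes and 57.8% to 69.4% of all probes were well above background in both channels. No spot was saturated. Of the cortical neuron markers, 8 of 8 were well above background on all arrays. So were 6 of 6 oligodendrocyte and 5 of 5 red cell markers, so this rule does not single out the cortex. The arrays lay on 5 slides, scanned on 2 days, and each slide held all 4 time points. Slide 1 held every pool 1, for which no dye swap was analysed, so a dye effect stays in the pool 1 values. The dyes mattered: after turning, an original array and its dye swap correlated between -0.36 and -0.092 over all probes.

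No collagen chain changed at any time point by the test across all probes. The test was limma's moderated test in 1 model of the 12 pools, with Benjamini-Hochberg adjustment over 39429 probes and a call at an adjusted p under 0.05 with a log2 ratio over 0.5 in size. The background was as thin: 0.00254% of all probes were called in the acute group, 0% at 8 days, 0.0228% at 13 days and 0% in recovery. The lowest adjusted p of a collagen gene in limma was 0.238 in the acute group, 1.0 at 8 days, 0.433 at 13 days and 0.999 in recovery. At an unadjusted p under 0.05, limma gave 9, 3, 5 and 1 collagen genes at the 4 time points in that order.

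The 9 genes at an unadjusted p under 0.05 after acute stress were all lower in stressed pools, and none was higher. They made up 3 of 11 fibrillar chains (Col1a1, Col1a2 and Col3a1), 1 of 6 type IV chains (Col4a5) and 5 of 26 others (Col8a2, Col9a1, Col16a1, Col22a1 and Col25a1). Over all 27384 genes by the same rule, 2.76% were lower and 2.6% higher. Only the brightest probe of a gene was counted. A second probe of Col20a1, above background on all 20 arrays, was higher after acute stress at 0.14 (limma unadjusted p = 0.0093). In the repeated stress groups the few genes past this threshold lay mostly on the other side. After 8 days 1 collagen gene was lower (Col22a1, 1.91% of all genes) and 2 were higher (Col3a1 and Col8a2, 0.829% of all genes). After 13 days 1 was lower (Col11a2, 4.39% of all genes) and 4 were higher (Col3a1, Col6a2, Col8a2 and Col9a1, 3.13% of all genes). After recovery 0 were lower by limma's unadjusted p (2.48% of all genes) and 1 was higher (Col14a1, 0.92% of all genes). The acute count of 9 depended on the pools and on the scaling. It was 9 without acute pool 1, 3 without acute pool 2, 5 without acute pool 3, and 0 with median centring of each array in place of loess. The shares of all genes were not counted in these settings, so a loss of calls over the whole array cannot be told apart.

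**Figure D1:**
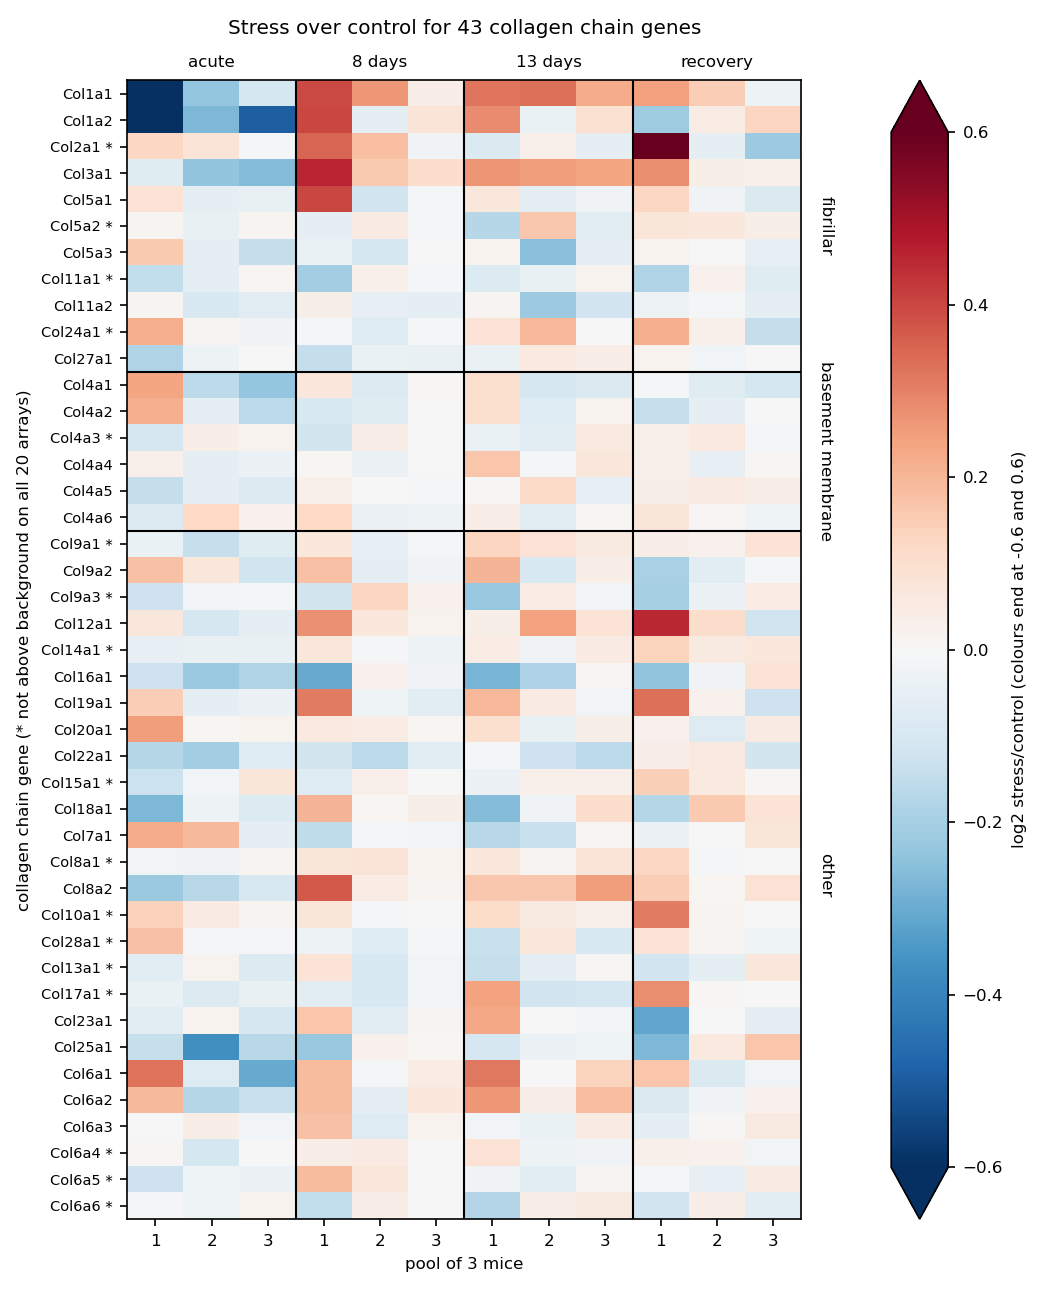
Log2 ratio of stressed over control signal of all 43 collagen genes (vertical axis, by class) in each of the 12 pools (horizontal axis, by time point), red for higher and blue for lower under stress. Colours end at 0.6 in either direction, and a star marks a gene that was not well above background in both channels on all 20 arrays. Blue gathers in the acute columns for Col1a1, Col1a2, Col3a1, Col16a1, Col22a1 and Col25a1, and most other cells are pale.

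The largest acute differences were those of type I collagen, the heterotrimer of 2 Col1a1 chains and 1 Col1a2 chain that makes up most fibrils. Col1a2 (probe at mm9 chr6:4490619-4490678) had log2 ratios of -0.82, -0.27 and -0.49 in the 3 acute pools. All 5 arrays of these pools were below 0. The mean of -0.53 (SE 0.10) had an adjusted p of 0.238 in limma, the lowest of any collagen gene at this time. In the other groups Col1a2 stayed near equal signal: 0.40, -0.052 and 0.079 after 8 days, 0.28, -0.039 and 0.093 after 13 days, and -0.21, 0.045 and 0.13 after recovery. No acute pool overlapped any pool of the other time points. The share of all genes with pools separated in this way was not counted, here or for the genes below.

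Col1a1 (probe at mm9 chr11:94813115-94813174) had log2 ratios of -2.06, -0.23 and -0.10 in the acute pools. Its mean of -0.80 (SE 0.26, limma adjusted p = 0.826) rested on pool 1, and without that pool it was -0.17. In the later groups the ratios lay above 0 in 8 of 9 pools, at 0.40, 0.26 and 0.038 after 8 days, 0.32, 0.33 and 0.22 after 13 days, and 0.25, 0.15 and -0.029 after recovery. Their means of 0.23, 0.29 and 0.12 did not pass the test (limma adjusted p of 0.899 at 13 days). The acute pools lay below every later pool.

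In the array of acute pool 1 the departure was in the control channel. Col1a1 stood at a log2 signal of 10.96 in that control pool, against 8.85 to 9.64 (median 9.23) in the control channels of the 19 other arrays. The stressed channel of the same array, 8.90, lay inside the 8.78 to 9.94 of the other stressed channels. Col1a2 showed the same on a smaller scale, with 11.14 in that control pool against 10.19 to 10.74 elsewhere, and 10.32 in its stressed partner against 10.13 to 10.89.

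**Figure D2:**
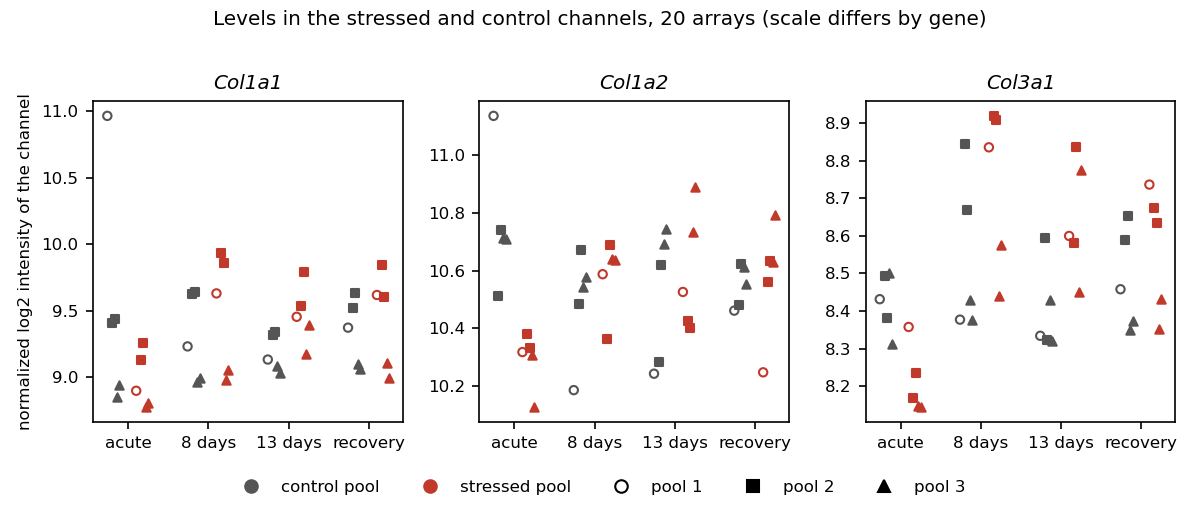
Normalised log2 signal of Col1a1, Col1a2 and Col3a1 (vertical axes, each with its own scale) in the control channel (grey) and the stressed channel (red) of each of the 20 arrays, by time point and pool. The control channel of acute pool 1 (open grey circle) stands above the other 19 control channels for Col1a1 (10.96) and Col1a2 (11.14), and not for Col3a1 (8.43).

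Some genes known mainly from other tissues were also low in acute pool 1. Acute pool 1 had 49 genes with a log2 ratio under -1 and 0 over 1, whereas acute pools 2 and 3 had 2 and 5 under -1. A high count was shared by every pool 1, all without a dye swap here. Pool 1 had 21 genes under -1 and 5 over 1 after 8 days, 40 and 10 after 13 days, and 45 and 5 after recovery. In acute pool 1, Col1a1 was the 16th lowest of the 27384 genes and Col1a2 the 73rd. Among the lowest were S100a9 at -3.87 and S100a8 at -3.67, granule proteins of neutrophils, the antimicrobial peptide gene Camp at -3.37, the osteocalcin gene Bglap2 at -2.29 and the osteoclast phosphatase gene Acp5 at -2.14. For lists written after these values were seen, 3 of 9 osteoblast and bone matrix genes, 1 of 5 osteoclast genes and 6 of 10 neutrophil and marrow genes were under -1 in this pool. In acute pools 2 and 3 none of these genes was under -1. Elsewhere S100a9 was at -1.16 in 8 days pool 1 and in recovery pool 3, and at 1.65 in recovery pool 2. In acute pool 1 the signal of the control channel was above that of every other control channel for 4 of the 9, 1 of the 5 and 8 of the 10. The share of all genes by this rule was not counted, and the lists were drawn with these values known, so the counts only describe this pool. The defining osteoblast genes Sp7 (0.22) and Phex (0.15) were in neither count, and their control signals were not well above background on that array. Other listed genes were in neither count although their control signals were well above background there. Among the bone and osteoclast genes these were Alpl (-0.20), Dmp1 (0.12), Mepe (0.090), Ocstamp (-0.040) and Oscar (0.052). Among the neutrophil and marrow genes they were Elane (-0.12) and Prtn3 (-0.11). The part of these cells in the type I collagen ratio was not tested. The 12 lowest genes of this pool also included Sntn at -3.53, Cpxcr1 at -3.22, Allc at -2.88, Gm5581 at -2.75 and Vmn1r234 at -2.49, which are in none of these lists. Without acute pool 1, Col1a2 had an acute mean of -0.38 (limma adjusted p = 1.0). Without pool 1 at every time point, a setting chosen after seeing the data, the mean was also -0.38 (limma adjusted p = 0.120).

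**Figure D3:**
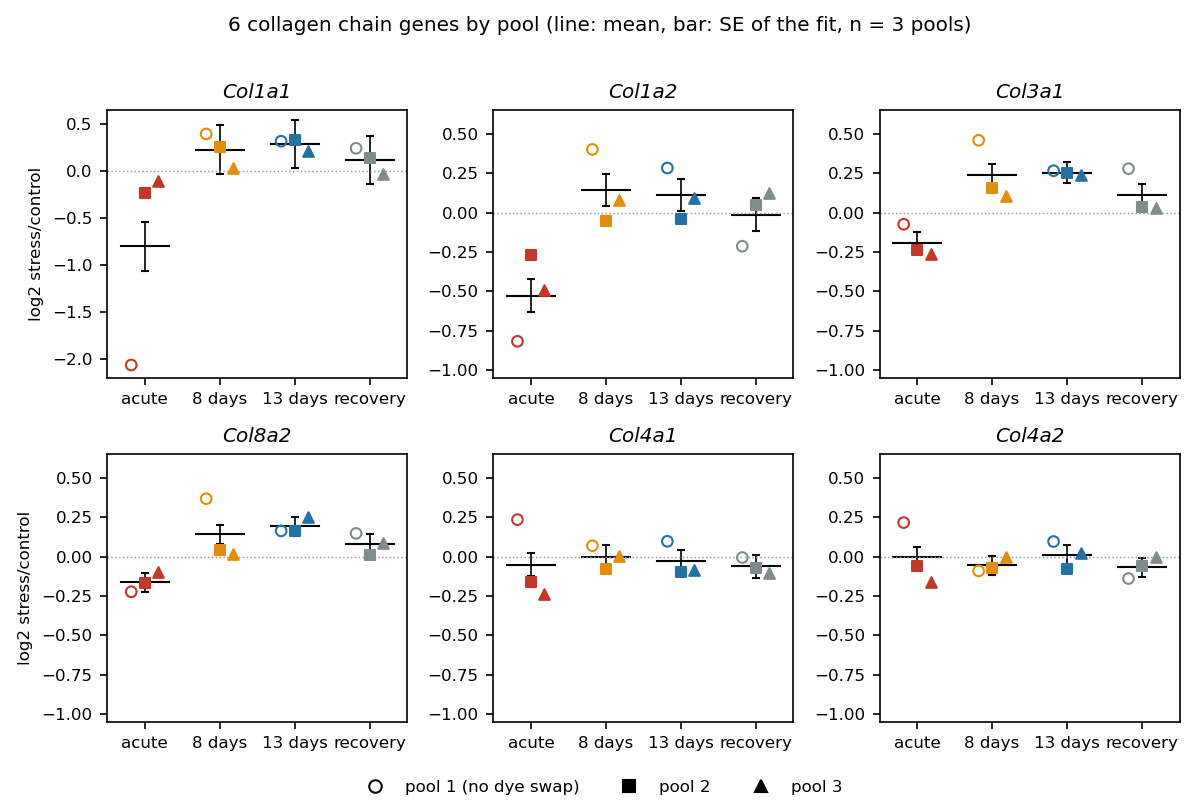
Log2 ratios of 6 collagen genes in each of the 12 pools by time point, with a line for the mean of 3 pools and a bar for the SE of the fit. The panel of Col1a1 has its own, wider scale so that acute pool 1 (-2.06) is on it. In the acute group every pool of Col1a2, Col3a1 and Col8a2 lies below 0, and after 13 days every pool of Col3a1 and Col8a2 lies above 0, while Col4a1 and Col4a2 lie on both sides in both groups.

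Col3a1, the type III chain that forms homotrimers in the same fibrils as type I, went from lower ratios after acute stress to higher ones after repeated stress. The acute pools had -0.074, -0.24 and -0.26, with a mean of -0.19 (SE 0.067, limma adjusted p = 0.927). After 8 days the pools had 0.46, 0.16 and 0.11 (mean 0.24, limma adjusted p = 1.0), and after 13 days 0.27, 0.25 and 0.24 (mean 0.25, limma adjusted p = 0.433). After recovery they were 0.28, 0.033 and 0.030. All pools of the acute group were below 0 and all pools of the other groups above 0. In acute pool 1 this chain was closest to 0, unlike the type I chains, and its control signal of 8.43 lay inside the 8.31 to 8.85 of the other arrays. At 13 days, the 2 original arrays of pools 2 and 3 had -0.012 and 0.021 while their dye swaps had 0.51 and 0.46, so the ratio of the pool is a mean over a large dye difference. By the scanner's log ratio Col3a1 had -0.34 in the acute group, 0.47 at 8 days and 0.42 at 13 days.

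Col8a2, a short-chain network collagen known from the sheet under the corneal endothelium and from vessel walls, followed the same course. Its ratios were -0.22, -0.17 and -0.098 after acute stress (mean -0.16, SE 0.059, limma adjusted p = 0.931). They were 0.37, 0.044 and 0.016 after 8 days, 0.16, 0.16 and 0.25 after 13 days (mean 0.19, limma adjusted p = 0.503), and 0.15, 0.012 and 0.088 after recovery. Again every acute pool was below 0 and every later pool above it. The second probe of the gene, well above background on 4 arrays, had an acute mean of 0.0038, and the mean of both probes was -0.079 there, 0.088 at 8 days and 0.12 at 13 days. By the scanner's log ratio the used probe had -0.35 (acute), 0.37 (8 days) and 0.43 (13 days). The dyes differed here too: at 13 days the original arrays of pools 2 and 3 had -0.13 and 0.013, and their swaps 0.45 and 0.49.

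The shift between acute and repeated stress was tested as a difference of the log2 ratios in the same model. No collagen gene was called in any of the 3 differences (8 days minus acute, 13 days minus acute and recovery minus 13 days), for which 0%, 0.00254% and 0% of all probes were called. For 13 days minus acute, the lowest adjusted p of a collagen gene was that of Col3a1, with a difference of 0.44 (SE 0.094, limma adjusted p = 0.279). Col1a2 differed by 0.64 (SE 0.15, limma adjusted p = 0.344). The difference was 0.35 for Col8a2 (limma adjusted p = 0.365) and 1.09 for Col1a1 (SE 0.36, limma adjusted p = 0.921). With the slide as a block over the 20 arrays, Col3a1 differed by 0.46 with an adjusted p of 0.0268 in limma, which is under the size set for a call. That fit took single arrays, with a consensus correlation of 0.040 between arrays of a pool. It thus counted a pool's dye swap nearly as a separate replicate, which it is not. It called 10 probes, against 1 in the model of the 12 pools without a block. Over the 12 pools with the pool number as a block, its limma adjusted p was 0.0544. For 8 days minus acute, the differences were 0.67 for Col1a2 and 0.43 for Col3a1, each with a limma adjusted p of 1.0. The comparisons with the acute group share its pools, which include acute pool 1.

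The other fibrillar chains showed smaller ratios. The type V chains, which set fibril diameter, had acute means of -0.0051 (Col5a1), -0.0032 (Col5a2) and -0.016 (Col5a3). Col5a1 reached 0.40 in pool 1 after 8 days, but pools 2 and 3 had -0.12 and -0.0099. Col5a3 had 0.020, -0.25 and -0.057 after 13 days. The signal of Col5a2 was above background in both channels on 3 of 20 arrays, and its 4 means lay between -0.025 and 0.056. Pools of these 3 genes fell on both sides of 0 at most time points.

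The type XI chains, relatives of type V known from cartilage, leaned low. Col11a2 had 0.016, -0.22 and -0.11 after 13 days, with a mean of -0.10 (SE 0.045, limma adjusted p = 0.659). Its means at the other time points were -0.045, -0.025 and -0.032. Col11a1 had means of -0.063, -0.063, -0.036 and -0.076 in order of time, and its pools overlapped 0 in every group. Col27a1, a long fibrillar chain of cartilage, had -0.18, -0.032 and -0.0039 after acute stress and -0.14, -0.038 and -0.043 after 8 days, lower in all 6 pools. Its means at 13 days and recovery were 0.020 and 0.00053. Col24a1 ranged from -0.034 to 0.093 in its means. Col2a1, the main chain of cartilage, was above background in both channels on 5 of 20 arrays, and its recovery pools spread from -0.22 to 0.61.

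The type IV chains gave no common direction. Col4a1 and Col4a2, which form the common type IV network of all vessels, start 21 bases apart on chromosome 8 in RefSeq (11312826 and 11312805 in GRCm38.p6) and are read in opposite directions. After acute stress Col4a1 had 0.24, -0.16 and -0.23, and Col4a2 had 0.22, -0.059 and -0.16. Both chains were thus high in acute pool 1, where the type I chains were low, and low in acute pools 2 and 3. Their acute means of -0.052 and -0.00017 were within the spread of the pools (SD 0.25 and 0.19). At the later time points the means lay between -0.060 and -0.0014 for Col4a1 and between -0.067 and 0.014 for Col4a2. These signs depend on the scaling: with median centring the acute means were 0.056 and 0.13, and Col4a1 had 0.042 after 13 days and 0.011 after recovery. With that setting the median over all genes was 0.040 in the acute group, 0.013 after 13 days and -0.038 after recovery.

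The remaining type IV chains form the networks of kidney, lung and smooth muscle. Col4a5 had -0.14, -0.057 and -0.081 after acute stress, all below 0, with a mean of -0.093 (SE 0.038, limma adjusted p = 0.976). In the later groups it had means of 0.0073, 0.024 and 0.042. Col4a4 had 0.16, -0.0095 and 0.069 after 13 days (mean 0.075, limma adjusted p = 0.753). The 2 other probes of Col4a4 were never above background in both channels. Col4a6 had means of 0.021, 0.018, -0.0063 and 0.017 in order of time. Col4a3 was never above background in both channels, so its means of -0.022 to 0.028 came from signals that were not well above background.

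Among the other classes, the clearest acute values were low. Col25a1 is a membrane-spanning collagen of neurons. It had -0.14, -0.37 and -0.17 after acute stress, with a mean of -0.22 (SE 0.075, limma adjusted p = 0.879). Its other 3 probes, one of them the glycine repeat probe printed above, had acute means of -0.14, -0.097 and -0.096, so all 4 were below 0, but the mean of all 4 was -0.14. With median centring the used probe had -0.13. Col22a1, a FACIT chain of tissue junctions, had -0.17, -0.21 and -0.078 after acute stress (mean -0.15, SE 0.045, limma adjusted p = 0.778). It was also below 0 in all 3 pools after 8 days, at -0.11, -0.16 and -0.068 (limma adjusted p = 1.0), and after 13 days, at -0.014, -0.12 and -0.16 (limma adjusted p = 0.699). Its recovery mean was -0.0032, with pools on both sides of 0. With median centring its means were -0.054, -0.10, -0.011 and 0.078 in order of time.

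Col16a1, another FACIT chain, had -0.12, -0.22 and -0.18 after acute stress (mean -0.18, limma adjusted p = 0.976). Its later means were also below 0, at -0.10, -0.15 and -0.059, but its pools lay on both sides of 0 in each of these groups. A second probe of Col16a1, also above background on all 20 arrays, had an acute mean of 0.023, and the remaining 2, above background on 5 and 0 arrays, had 0.032 and -0.026. Col9a1, a FACIT chain of cartilage fibrils, had an acute mean of -0.084, a mean of 0.089 after 13 days (limma adjusted p = 0.651) and of 0.049 after recovery. Its 13 days value turned to -0.019 with median centring, and its other probe, above background on 11 arrays, had 0.018 after acute stress and -0.062 after 13 days. Its partner Col9a2 had 0.042 after acute stress and -0.090 after recovery. On the higher side after acute stress were Col7a1, the anchoring fibril chain, with 0.22, 0.20 and -0.057 (mean 0.12, limma adjusted p = 0.976), and Col20a1 with 0.25, 0.0094 and 0.022 (mean 0.094). A second probe of Col20a1 had 0.14. The Col7a1 mean lay below 0 after 8 and 13 days, at -0.060 and -0.096.

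The type VI chains, which make beaded filaments around cells, leaned high after 13 days for the pair that is always co-assembled. Col6a2 had 0.26, 0.040 and 0.18 (mean 0.16, SE 0.068, limma adjusted p = 0.659), and Col6a1 had 0.32, -0.0020 and 0.13 (mean 0.15, limma adjusted p = 0.819). The second probe of Col6a2, above background in both channels on 2 arrays, had -0.021 after 13 days. After acute stress these chains were high in pool 1 (0.33 for Col6a1 and 0.20 for Col6a2) and low in pools 2 and 3 (-0.076 and -0.30 for Col6a1, -0.17 and -0.13 for Col6a2), as the type IV pair was. Col6a3 lay between -0.0038 and 0.040 in its 4 means. Col6a4 was rarely and Col6a5 and Col6a6 never above background in both channels.

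Other chains of these classes stood out only by their place in the order of the test statistics. After 8 days these were Col12a1 (0.27, 0.065 and 0.022) and Col18a1, the source of endostatin (0.20, 0.011 and 0.037). After recovery they were Col12a1 again (0.45, 0.10 and -0.12) and Col23a1 on the low side (-0.31, -0.00036 and -0.055), whose other probes had recovery means of -0.080 and 0.037. In each of these sets pool 1 was the farthest from 0. The other probe of Col18a1, above background on all 20 arrays, had 0.0016 after 8 days. That of Col12a1, not above background in both channels on any array, had -0.034 after 8 days and 0.011 after recovery. Col14a1, above background in both channels on part of the arrays, had 0.13, 0.055 and 0.065 after recovery (mean 0.084, limma adjusted p = 0.999). Its mean became -0.019 with median centring, which put the median over all genes at -0.038. The other probe of Col14a1, above background on 19 arrays against 13 for the used one, had -0.071 after recovery. Col10a1 is a chain of growth cartilage. The study's main text does not mention it, but it stands in the study's additional list of genes called regulated by social stress. Here Col10a1 was not called at any time point. It was above background in both channels on 1 array of 20, with means of 0.068, 0.024, 0.063 and 0.11.

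Taken by class, the median collagen gene moved little. The median over the 11 fibrillar chains, taken in each pool and then averaged, was -0.029 ± 0.039 (SD, n = 3 pools) in the acute group, -0.0045 ± 0.037 at 8 days, 0.017 ± 0.017 at 13 days and 0.017 ± 0.061 in recovery. For type IV chains it was -0.047 ± 0.018, -0.0055 ± 0.028, 0.0055 ± 0.067 and 0.0016 ± 0.026. For the other classes it was -0.036 ± 0.013, 0.021 ± 0.042, 0.019 ± 0.027 and 0.018 ± 0.0096. The median over all genes lay between -0.0020 and 0.0031 at every time point. After acute stress the class medians of type IV and of the other chains were below 0 in all 3 pools, and the fibrillar median in 2 of 3. Of the 43 genes, 15 were below 0 in all 3 acute pools (14.4% of all genes) and 2 above (14.1%). The counts were 8 below (11.3%) and 8 above (7.45%) after 8 days, 2 below (14.6%) and 8 above (12.2%) after 13 days, and 5 below (12.7%) and 7 above (8.34%) after recovery.

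**Figure D4:**
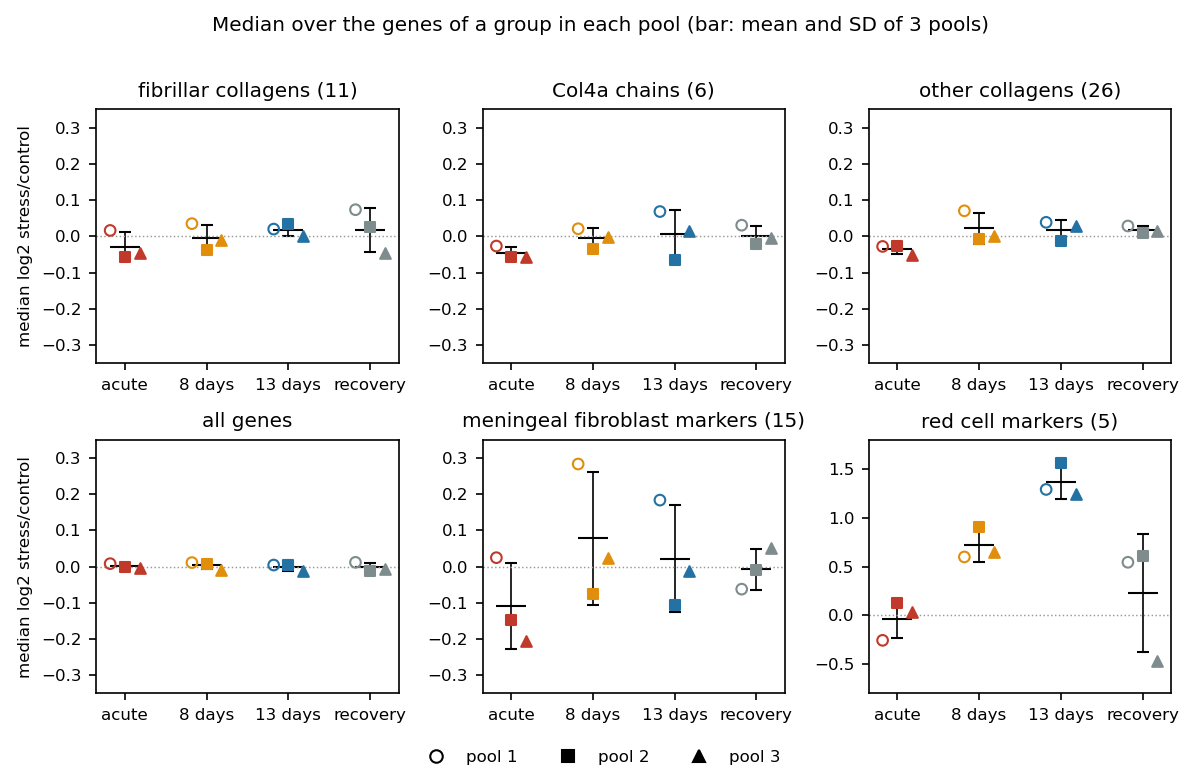
Median log2 ratio over the genes of each class of collagen chain, over all genes, and over meningeal fibroblast and red cell markers, in each of the 12 pools by time point, with the mean and SD of 3 pools. The red cell panel has its own, wider scale. The collagen classes stay within 0.1 of 0, while the red cell markers reach 1.24 to 1.56 after 13 days.

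Pairs of genes were compared over the 12 pools, 8 pairs in all, by permutation tests with Benjamini-Hochberg adjustment over the pairs. The pools share slides and time points, so a correlation over all 12 also holds the differences between time points. Col1a1 and Col1a2 had a Pearson r of 0.797 (adjusted permutation p = 0.0148) and a Spearman rho of 0.615 (adjusted permutation p = 0.0859). Without the 2 pools farthest out, acute pools 1 and 2, r was 0.555, and in pools 2 and 3 alone it was 0.530. Col1a1 and Col3a1 kept nearly the same order (rho = 0.902, adjusted permutation p = 0.00084) although r was 0.507 (adjusted permutation p = 0.117). Their r was 0.904 without acute pools 1 and 2. Col1a2 and Col3a1 had an r of 0.698 (adjusted permutation p = 0.0216) and a rho of 0.601 (adjusted permutation p = 0.0859), and r was 0.603 without acute pools 1 and 3.

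These relations lay mainly between the time points. With the mean of its time point subtracted from every pool, r came to 0.558 for Col1a1 and Col1a2, -0.223 for Col1a1 and Col3a1 and -0.0586 for Col1a2 and Col3a1. The type IV pair Col4a1 and Col4a2 had an r of 0.735 (adjusted permutation p = 0.0216) and a rho of 0.469 (adjusted permutation p = 0.171). Without acute pool 1 and 13 days pool 1 its r was 0.179, so the value over all pools depended on those pools. It was 0.721 in pools 2 and 3 alone and 0.803 within time points (adjusted exact permutation p = 0.383). Col1a1 and Col4a1 had an r of -0.504 (adjusted permutation p = 0.117) and a rho of 0.266 (adjusted permutation p = 0.403), and r turned to 0.658 without acute pools 1 and 2. Within time points no pair passed, and the lowest adjusted p by exact permutation was 0.383.

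Col1a2 was also set against genes of 2 other groups. With Dcn, the gene of decorin, a proteoglycan that binds collagen fibrils, r was 0.730 (adjusted permutation p = 0.0216) and rho 0.895 (adjusted permutation p = 0.00084). This r was 0.814 without acute pools 1 and 3, and 0.638 within time points. With Mgp, the matrix Gla protein gene, r was 0.645 (adjusted permutation p = 0.0344) and rho 0.573 (adjusted permutation p = 0.0897), with 0.616 without the same pools. With the beta globin gene Hbb-b1, r was 0.509 (adjusted permutation p = 0.117) and rho 0.413 (adjusted permutation p = 0.211), and 0.145 without the same pools.

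The genes that make, trim, cut and sense collagen were counted from 5 lists, and none was called at any time point (the background shares are those given for each time point above). Of 17 modifying enzymes and chaperones, 1 was lower and 1 higher at an unadjusted p under 0.05 after acute stress. P4ha1, a prolyl hydroxylase subunit, had 0.017, 0.21 and 0.28, and Serpinh1, the collagen chaperone HSP47, had -0.46, 0.0063 and -0.073. After 8 days 0 passed by limma's unadjusted p. Plod2, a lysyl hydroxylase, then had 0.059 and Lepre1, a prolyl 3-hydroxylase, -0.087. After 13 days 1 was lower and 1 higher: Plod1, with -0.70, -0.013 and 0.048, and P4ha1, with a mean of 0.12. After recovery 1 was lower, P4hb (-0.11), and Glt25d1, a collagen galactosyltransferase, had -0.097.

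Pcolce, an enhancer of procollagen C-proteinase, took the course of Col3a1. Its pools had -0.065, -0.20 and -0.26 after acute stress (limma adjusted p = 0.914), 0.43, 0.16 and 0.22 after 8 days (mean 0.27, limma adjusted p = 1.0), and 0.21, 0.21 and 0.23 after 13 days (mean 0.21, limma adjusted p = 0.464). All acute pools were below 0 and all pools of both repeated stress groups above. Tll1, a tolloid-like proteinase that cuts procollagen, ran the other way, with means of 0.15 after acute stress (limma adjusted p = 0.796), -0.13 after 13 days and -0.13 after recovery. Among the 12 genes of processing and cross-linking, 2 were lower and 1 higher at an unadjusted p under 0.05 after acute stress. The counts were 0 and 1 after 8 days, 2 and 1 after 13 days, and 1 and 0 after recovery. Adamts2, the procollagen N-proteinase, had 0.088 after 8 days, and the cross-linking enzyme gene Loxl3 0.046 after recovery.

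Of 10 collagenases and inhibitors, 1 was higher at an unadjusted p under 0.05 after acute stress, 1 lower after recovery and 0 in the repeated stress groups by limma. The acute gene was Timp4, a metalloproteinase inhibitor, with 0.50, 0.30 and 0.16 (mean 0.32, limma adjusted p = 0.120). Timp1, a related inhibitor, had 0.44, 0.43 and 0.26 after 13 days (mean 0.38, limma adjusted p = 0.923). After recovery it had -2.93, 0.0098 and 0.056, so its mean of -0.95 rested on pool 1. Timp2 had means of -0.12 after 8 days and -0.23 after 13 days, and the collagenase gene Mmp13 had -0.095 after acute stress and -0.053 after 8 days. Mmp13 was not well above background in both channels on any array.

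Of 11 collagen receptors, 1 was lower after acute stress, 1 higher after 8 days, and 1 lower and 3 higher after 13 days at an unadjusted p under 0.05. Ddr2, a tyrosine kinase that binds fibrillar collagen, had -0.045, -0.23 and -0.15 after acute stress (limma adjusted p = 0.718). After 13 days it had 0.20, 0.16 and 0.14 (mean 0.17, limma adjusted p = 0.331). These groups did not overlap, but the share of all genes separated in this way was not counted. Itga11, an integrin subunit for fibrillar collagen, had 0.61, 0.11 and 0.094 after 8 days. Gpr56, a receptor of type III collagen in the developing cortex, had -0.19, -0.18 and -0.13 after 13 days (limma adjusted p = 0.483). The receptor Gp6 had -0.069 after acute stress, Mrc2, which takes up collagen, 0.083 after 8 days, and Lair1 0.058 after recovery, when 0 receptors passed by the unadjusted p in limma. Gp6 was not well above background in both channels on any array.

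Of 12 partners of type IV collagen in basement membranes, all had means below 0 after acute stress, from -0.14 to -0.017, and 7 were below 0 in all 3 pools. At an unadjusted p under 0.05, 2 were lower: the laminin chain gene Lama1 (-0.21, -0.073 and -0.14) and the nidogen gene Nid2 (-0.14, -0.12 and -0.13). After 8 days 2 were higher, Nid1 with 0.36, 0.048 and 0.010, and Hspg2, the perlecan gene, with 0.15, 0.12 and 0.042. After 13 days Nid1 had 0.33, 0.17 and 0.10 (mean 0.20, limma adjusted p = 0.508), and Lamb2 was lower with -0.29, -0.10 and -0.069. After recovery 0 passed by limma's unadjusted p, and Hspg2 and Lama5 had means of 0.095 and 0.083.

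Markers of the cells that a frontal slice can hold moved with some of these values. In bulk tissue, fewer cells of a type and less RNA per cell cannot be told apart. All 15 meningeal fibroblast markers were well above background on all 20 arrays, and so were 10 of 10 endothelial, 8 of 10 mural, 5 of 5 red cell and 6 of 6 oligodendrocyte markers, but 2 of 8 of choroid plexus. The median of the 15 meningeal fibroblast markers was 0.024, -0.15 and -0.20 in the acute pools, 0.28, -0.075 and 0.025 after 8 days, 0.18, -0.11 and -0.013 after 13 days, and -0.062, -0.011 and 0.051 after recovery. In acute pool 1 these markers were thus near equal while the type I chains were low, and in acute pools 2 and 3 both were low. At an unadjusted p under 0.05, 5 of the 15 were lower after acute stress, among them Slc13a4 (-0.21, -0.32 and -0.31) and Ogn, the osteoglycin gene (-0.13, -0.23 and -0.29).

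After 13 days Ogn had 0.25, 0.27 and 0.24 (limma adjusted p = 0.196), so like Col3a1 it lay below 0 in the acute pools and above 0 here. The list was mixed: of its 15 markers, 4 were above 0 in all 3 pools after 13 days (12.2% of all genes) and 2 below (14.6%). Mgp, the only marker of this list that was called, rose by 1.13, 0.67 and 0.64 after 13 days (limma adjusted p = 0.0091). All 5 red cell markers were called higher after 13 days, with pool medians of 1.29, 1.56 and 1.24, and had pool medians of 0.60, 0.91 and 0.65 after 8 days. Oligodendrocyte markers had pool medians of 0.33, 0.27 and 0.19 after acute stress. The medians of endothelial and mural markers lay between -0.052 and -0.0096 and between -0.11 and 0.029 in the acute pools. Choroid plexus markers had 0.052, 0.031 and -0.060 there, and cortical neuron markers 0.17, -0.0086 and -0.076. The part of these cell types in the collagen values was not tested.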

How the data were processed

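The deposited scanner files hold spot intensities of 2-colour mouse arrays made by Agilent Feature Extraction 10.10.1.1 (protocol GE2_1010_Sep10), with a log10 ratio of the dyes per spot. The authors' deposited value table holds log2 ratios, whose scale was checked against the intensities; it served as an alternative only. Dyes were taken from the labels. Mean and background median intensities were corrected by normexp (offset 50), then normalised within arrays by loess and between arrays by Aquantile in limma 3.58.1 (R 4.3.3). Control spots were left out, spots of a probe averaged, swapped arrays turned and averaged with their originals. One linear model with 4 time points (12 pools) was fitted to 39429 probes (prior degrees of freedom 4.86) and checked on simulated data. Depth has no meaning for arrays; their number limits precision. The members, gene lists and pairs were chosen with earlier results of these data known. Named genes were all fibrillar and type IV chains, and, per time point, the 3 higher and 3 lower of the other classes and the 2 per list with the largest moderated t. The alternatives varied background correction, scaling, source of the ratios, probe filter, variance model, blocks, probes and pools. No column of the authors' own comparisons was used. Gene names and mm9 probe coordinates are those of the array files.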

Additional observations from a re-analysis of the deposited data

How the results depend on the processing

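The number of collagen genes called was 0 at every time point and in every difference under every alternative run, and 0 when any pool was left out. The numbers at an unadjusted p under 0.05 moved more: by over 1.5 times in 46 comparisons with an alternative, and by less in 66. Among them the acute lower count was 12 without pool 1 at every time point, an alternative chosen after seeing the data. The shares of all genes under these alternatives were not counted. No Aquantile changed no ratio. Same-numbered pools of different time points deviated together more often than pools of different number. They correlated between -0.116 and 0.508, above 0.1 in 12 of 18 pairs (median 0.279). Pools of different number had a median of -0.128 and were above 0.1 in 8 of 36 pairs. Each number lay on slides of its own, so a number also stands for its slides. With the replicate number as a block, 2, 1, 10 and 0 probes were called at the 4 time points against 1, 0, 9 and 0, and 0 collagen genes (lowest limma adjusted p of 0.182, 0.274, 0.0992 and 0.675). The slide as a block allowed tests of the differences between time points alone.

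The class medians are small enough to move with the setting, and the cause was not tested. In the order fibrillar, type IV and other, median centring gave -0.0851 (fibrillar) and -0.0923 (other) after acute stress, 0.0465, 0.0337 and 0.0760 after 8 days, -0.0365 (other) after 13 days and -0.0620 (other) after recovery. The scanner's log ratio gave -0.122, -0.0926 and -0.101 after acute stress, 0.118 (fibrillar) after 8 days, 0.101 (fibrillar) after 13 days and -0.0277 (type IV) after recovery. With normexp offset 0, the acute medians were -0.0683 (type IV) and -0.0746 (other) and the 13 days median 0.0384 (fibrillar). The authors' table gave -0.0679 and -0.0732 for the same acute classes, 0.0418 (fibrillar) after 13 days and 0.0312 (other) after recovery. Probes above background on all arrays gave -0.0895 and 0.115 (fibrillar, acute and 8 days) and -0.00195 (other, recovery), and the mean of all probes -0.0147 (type IV, acute) and 0.00147 (other, recovery). Leaving out pools, the acute medians ranged from -0.052 to -0.015 (fibrillar), -0.057 to -0.042 (type IV) and -0.039 to -0.028 (other). After 8 days the ranges were -0.024 to 0.012, -0.019 to 0.0093 and -0.0030 to 0.036, after 13 days 0.0098 to 0.026, -0.026 to 0.041 and 0.0086 to 0.034, and after recovery -0.011 to 0.049, -0.013 to 0.013 and 0.013 to 0.022.

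With median centring, r became 0.670 for Col1a1 and Col3a1 (adjusted permutation p = 0.0189), 0.235 for Col1a1 and Col4a1, and 0.781 for Col1a2 and Hbb-b1 (adjusted permutation p = 0.00421), and Col9a1 after 13 days (-0.0195) and Col14a1 after recovery (-0.0189) changed sign. Median centring changed the sign of 44 of the 172 collagen values (43 genes at 4 time points), among them Col6a1 after acute stress (0.12), the scanner's log ratio that of 36 and no background correction that of 30. These signs are relative to 0 and not to the median over all genes, which median centring itself moved. Signals near background limit 17 of the 43 genes.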

Other observations

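Recovery pool 1 had single genes far from the other pools outside the collagen chains: Timp1 had a log2 ratio of -2.93 there, and Ttr, the transthyretin gene of the choroid plexus, had -2.33, 0.42 and 0.28 in the 3 recovery pools. In acute pool 1, genes with a log2 ratio under -1 numbered 49, in 8 days pool 1 21, in 13 days pool 1 40 and in recovery pool 1 45, against 0 to 5 in every pool 2 and pool 3. Pool 1 is the pool for which no dye swap was analysed here at each time point.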
